A study of Mus musculus with 42 samples.

Results

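Kidneys of mice that lack Tsc2 in the tubular epithelium and were treated with Rapamycin were compared with kidneys of vehicle-treated control mice, to find what differed in RNA once the drug had been given. The comparison takes in 6 of the 42 samples of the series, 3 from each group, chosen by their group labels alone. The Tsc2 KO mice carried KspCre, a Cre recombinase under the promoter of Cdh16 (Ksp-cadherin), together with floxed Tsc2 alleles, on a C57BL/6 background. The controls, labelled wild type, were mice without the Cre. Rapamycin was injected intraperitoneally at 1 mg/kg, 3 times per week from postnatal day 25, for 11 injections. The controls of this comparison received vehicle over the same period, and whole kidneys were collected on day 50. KspCre is active in tubular epithelium, so other cells of these kidneys, such as those of glomeruli and vessels, keep Tsc2. Rapamycin-treated controls and vehicle-treated Tsc2 KO kidneys, 3 of each, gave the drug effect alone and the genotype effect alone. An untreated KspCre cohort collected at the same age, with 3 control and 3 Tsc2 KO libraries, shared no library with the drug-treated mice. All samples were poly-A RNA libraries of bulk tissue that do not keep strand.

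Tsc2 and Tsc1 form the complex that holds the kinase mTORC1 in check, and Rapamycin inhibits part of what mTORC1 does. When the complex is lost, mTORC1 stays active and, in the kidney, the transcription factor TFEB, which drives lysosomal genes, is found in the nucleus. Intercalated cells are the acid-base cells of the collecting duct. Type A cells secrete acid through a proton-pumping V-ATPase, type B cells secrete bicarbonate through pendrin, and both depend on the forkhead factor Foxi1.

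The 6 libraries held 15104557 to 20077360 reads assigned to genes, and the 18 libraries of the drug-treated cohort held 15104557 to 22807605. Kidney genes defined the tissue in the libraries compared: Cdh16 lay at 308 to 365 FPKM (fragments per kilobase of transcript in a library scaled to a common read total) in vehicle-treated controls and at 305 to 404 FPKM in Rapamycin-treated Tsc2 KO kidneys. Nothing in the labels says more than that the 3 samples of a group are separate samples, so p-values measure the spread between these samples. Differences are log2 fold changes from edgeR, each given as estimate ± SE. A gene was called when its Benjamini-Hochberg adjusted p was at most 0.05 and its mean level reached 5 FPKM in one of the groups compared. Levels are FPKM, in the order of replicates 1 to 3.

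Tsc2 RNA remained below the control level under Rapamycin. Its level was 8.59, 9.65 and 9.81 FPKM in vehicle-treated controls, 8.18, 8.56 and 8.93 in Rapamycin-treated controls, 4.47, 3.92 and 3.8 in vehicle-treated Tsc2 KO and 5.55, 6.5 and 5.06 in Rapamycin-treated Tsc2 KO kidneys. Every Tsc2 KO library lay below every control library, with or without the drug. The difference from vehicle-treated control was -0.71 ± 0.10 (edgeR adjusted p = 0.00343), and Rapamycin-treated Tsc2 KO kidneys held more Tsc2 RNA than vehicle-treated ones (0.49 ± 0.10, edgeR adjusted p = 0.00199). The gene-level value takes in exons outside the floxed stretch, and Tsc2 (mm10 chr17:24595816-24632630) overlaps Pkd1 on the opposite strand, whose reads cannot be told apart in these libraries. Gpnmb, a lysosomal glycoprotein gene induced by TFEB, was low under the drug: its level was 18.7, 17 and 18.4 FPKM in vehicle-treated Tsc2 KO and 0.102, 0.164 and 0.241 FPKM in Rapamycin-treated Tsc2 KO kidneys, against 0.0645, 0.188 and 0.0284 FPKM in vehicle-treated controls.

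Few genes were called different from control in the treated kidneys. Of 17027 genes tested, 34 were higher (0.2%) and 19 were lower (0.112%) in Rapamycin-treated Tsc2 KO than in vehicle-treated control kidneys, 0.311% in all, whereas vehicle-treated Tsc2 KO kidneys held 1929 higher (11.3%) and 1995 lower genes (11.7%) against the same control libraries. At an unadjusted p under 0.05, 1663 genes passed in the treated kidneys. The genes nearest to the threshold were Echs1 and Abcc3 (edgeR adjusted p = 0.0437 for each) and Ctsc (0.0464) on its inner side, and Adgrf5 (0.0515), Ttr (0.0525) and Efhd1 (0.0526) on its outer side. The number of calls depended on single libraries: without control replicates 1, 2 and 3 in turn it was 17, 20 and 21 higher and 5, 9 and 18 lower, and without treated Tsc2 KO replicates 1, 2 and 3 it was 20, 64 and 16 higher and 6, 27 and 9 lower. DESeq2 called 101 higher and 62 lower genes, and edgeR on the 6 libraries alone called 11 and 2. Of the 53 genes, 9 were called under all 13 alternatives (Aqp6, Dmrt2, Kit, Oxgr1, Guca2a, Fetub, Serpinb9, Gm8730 and Akr1c14); the other 44 lost the call under at least 1 and none changed sign. Foxi1, Atp6v0d2, Cldn7, Irf9, Klf2, Slco1a6 and Tsc2 lost it only in edgeR on the 6 libraries alone, and Mlph only without treated Tsc2 KO replicate 3. Counts were made without strand information, and Echs1, Slc25a25, Rhcg and Slco1a6 overlap other genes (Paox, Naif1, Gm45170 and Gm20400), whose mean levels in control were 1.51 to 3.89 FPKM.

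**Figure D1:**
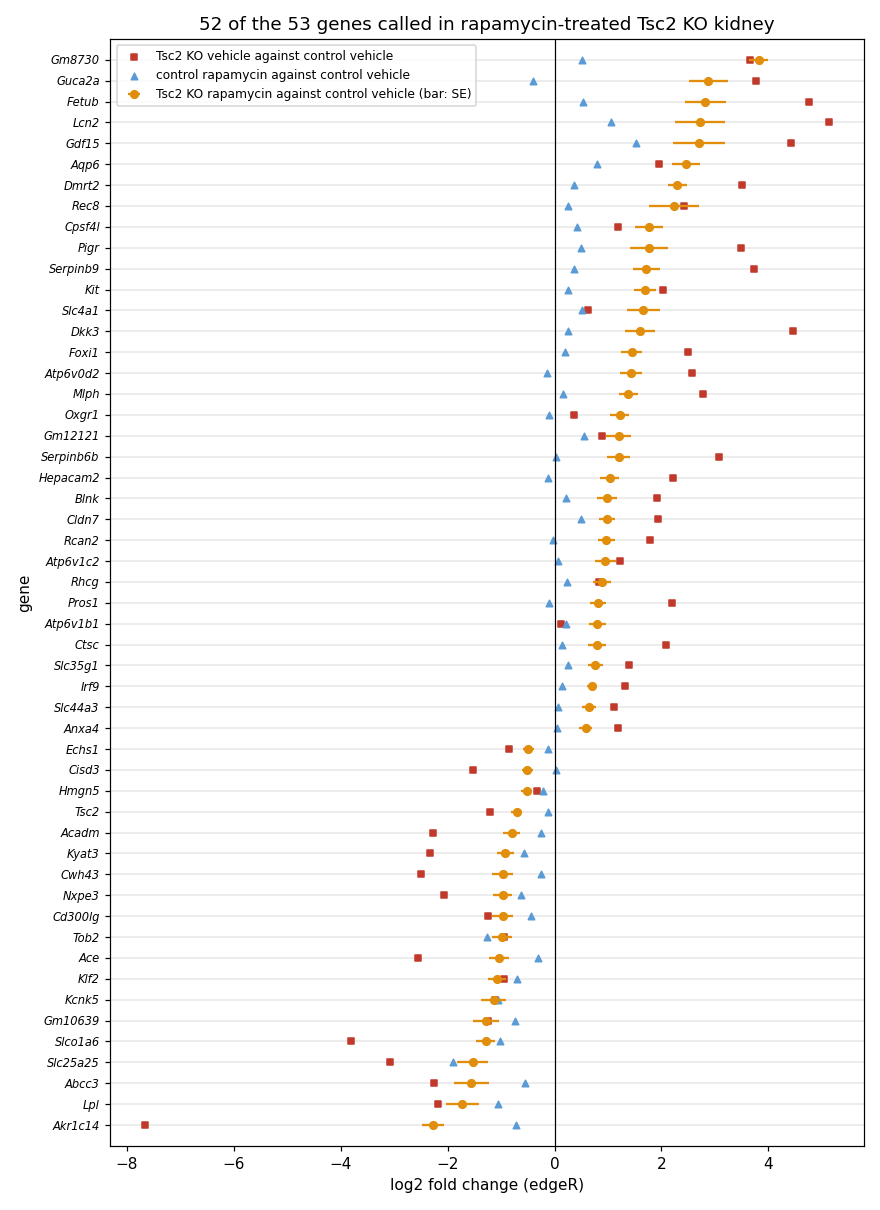
Log2 fold changes against vehicle-treated control (x axis, edgeR) of 52 of the 53 called genes (y axis), for Rapamycin-treated Tsc2 KO (circles, bars show the SE), vehicle-treated Tsc2 KO (squares) and Rapamycin-treated control kidneys (triangles); the 3 comparisons share the control libraries, and the pseudogene Gm48120 is left out because all control libraries were at 0. Of all 53 genes, 26 of 34 higher and 14 of 19 lower ones have a circle nearer to 0 than the square. Slc4a1, Oxgr1, Atp6v1b1, Aqp6 and Cpsf4l are among those beyond their squares, and for Slc25a25, Tob2 and Kcnk5 the triangles lie near or beyond the circles.

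The list of intercalated cell genes held more called genes than any other of the 38 lists. These lists were chosen with earlier results of these data known, so the ranking is a description and not an independent test. Of 16 intercalated cell genes listed, all tested, 8 rose in Rapamycin-treated Tsc2 KO kidneys, beside 0.2% of all genes tested, and none fell; all 16 estimates were above 0, from 0.03 for Car2 to 2.46 for Aqp6. The median of the list was 0.90, against 0.01 over all genes tested. In vehicle-treated Tsc2 KO kidneys 7 of the 16 rose and 4 fell (median 0.45), beside 11.3% and 11.7% of all genes tested. All 16 reached the 5 FPKM needed for a call in treated Tsc2 KO or control kidneys. Of the 17027 genes tested, 7535 did so, and 8098 in the comparison of vehicle-treated Tsc2 KO with control. The shares of all genes tested, here and elsewhere, would therefore be higher among genes that could be called. In Rapamycin-treated controls no member was called by edgeR (median 0.20). Against Rapamycin-treated control 5 were called higher (Aqp6, Dmrt2, Kit, Foxi1 and Atp6v0d2), beside 0.305% of all genes, with a list median of 0.62. Slc4a1, Atp6v1b1 and Rhcg were not called there (edgeR adjusted p = 0.118, 0.128 and 0.122). Without control replicate 1, control replicate 2 or treated Tsc2 KO replicate 1 the count of risen members was 5, edgeR on the 6 libraries alone gave 3, and a covariate for the level of Xist, an RNA of the inactive X chromosome, gave 5. Whole tissue was measured, so more intercalated cells and more RNA per cell cannot be told apart, here or for any other cell type below.

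The intercalated cell genes were ordered after their values were seen, and no test compared one set of them with another. Aqp6 (chr15:99601400-99605477), a channel of intracellular vesicles of type A cells, was at 42.2, 28.4 and 37.6 FPKM in vehicle-treated controls, 111, 173 and 134 in vehicle-treated Tsc2 KO and 172, 135 and 289 in Rapamycin-treated Tsc2 KO kidneys. It was 5.51-fold higher in the treated Tsc2 KO kidneys than in control (2.46 ± 0.26, edgeR adjusted p = 0.000254) and was not distinguished from the vehicle-treated Tsc2 KO level (0.51, 95% interval -0.02 to 1.05). Rapamycin alone left Aqp6 at 60.8, 78.7 and 48.9 FPKM in controls, a difference of 0.80 ± 0.25 that was not called (edgeR adjusted p = 0.377).

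Slc4a1 (chr11:102348824-102366203), the basolateral chloride-bicarbonate exchanger of type A cells and also an abundant red cell protein, stood at 21, 10.1 and 21.1 FPKM in vehicle-treated controls, 19.1, 30.7 and 30.3 in vehicle-treated Tsc2 KO and 70.4, 27.8 and 66 in Rapamycin-treated Tsc2 KO kidneys. Replicate 2 of the treated Tsc2 KO group lay within the range of the vehicle-treated Tsc2 KO libraries, and the other two lay far above every library of the other groups. The gene was higher than in control (1.66 ± 0.31, edgeR adjusted p = 0.0221) and higher than in vehicle-treated Tsc2 KO (1.04 ± 0.30, edgeR adjusted p = 0.0174), whereas vehicle-treated Tsc2 KO and control were not distinguished (0.62 ± 0.30, edgeR adjusted p = 0.116). The call against control was lost in 6 of the 13 alternatives, among them those without control replicates 1 and 2 and without treated Tsc2 KO replicates 1 and 3, over which the highest adjusted p was 0.264. None of the 5 red cell genes tested was called (unadjusted p under 0.05 in 0, DESeq2 0). Their summed level was 200 to 301 FPKM in control and 56.6 to 262 FPKM in treated Tsc2 KO kidneys, and all 5 estimates were below 0.

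Kit (chr5:75574916-75656722), a receptor tyrosine kinase gene of intercalated cells, was at 3.68, 3.19 and 4.16 FPKM in control and at 14.8, 11.2 and 9.57 FPKM in treated Tsc2 KO kidneys. The rise was 1.69 ± 0.20 (edgeR adjusted p = 0.000566), and it was 2.02 ± 0.20 without the drug. Dmrt2 (chr19:25672420-25679010), a transcription factor gene of type A cells, was at 3.91, 2.8 and 3.65 FPKM in control, at 34.5, 47.6 and 35.9 in vehicle-treated Tsc2 KO and at 19, 13.9 and 18.2 in treated Tsc2 KO kidneys. Here the drug brought the level down by 1.2 ± 0.17 on the log2 scale (edgeR adjusted p = 6.67e-05) and left it 4.94-fold above control (2.30 ± 0.18, edgeR adjusted p = 6.25e-06).

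Foxi1 and the pump subunit gene Atp6v0d2 kept part of their rise. Foxi1 (chr11:34204338-34208089) was at 22.7, 15 and 25.1 FPKM in control, at 104, 147 and 104 in vehicle-treated Tsc2 KO and at 64.6, 47.4 and 58.2 in treated Tsc2 KO kidneys, so the treated libraries lay between the other 2 groups without overlap. Atp6v0d2 (chr4:19876841-19922605), which encodes a V-ATPase subunit of intercalated cells and is also a TFEB target, was at 17.4, 23.3 and 26 FPKM in control, 159, 136 and 102 in vehicle-treated Tsc2 KO and 49.8, 68.5 and 61 in treated Tsc2 KO kidneys. Against control the remaining differences were 1.44 ± 0.19 for Foxi1 (edgeR adjusted p = 0.00215) and 1.43 ± 0.21 for Atp6v0d2 (edgeR adjusted p = 0.00343), both again called against Rapamycin-treated control. The lincRNA Gm12121, which lies near Foxi1 on chromosome 11 at chr11:34141827-34143421, was 2.30-fold higher than in control (edgeR adjusted p = 0.0243). It did not differ detectably between vehicle and Rapamycin in Tsc2 KO kidneys (0.31 ± 0.22). Against Rapamycin-treated control Gm12121 was not called (0.66 ± 0.22, edgeR adjusted p = 0.229). Its call against vehicle-treated control was lost in 6 of the 13 alternatives (adjusted p up to 0.142).

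Atp6v1b1 (chr6:83742990-83758855), the B1 subunit of the intercalated cell pump, was at 34.9, 33 and 39.8 FPKM in control, 36.7, 44.4 and 35.6 in vehicle-treated Tsc2 KO and 73.2, 61 and 53.4 in treated Tsc2 KO kidneys. Its mean level, like that of Slc4a1, was highest with deletion and drug together, with differences of 0.80 ± 0.16 against control (edgeR adjusted p = 0.0359), 0.69 ± 0.16 against vehicle-treated Tsc2 KO (edgeR adjusted p = 0.00447) and 0.12 ± 0.16 for the deletion without the drug. Against Rapamycin-treated control neither gene was called (0.59 ± 0.16 for Atp6v1b1, edgeR adjusted p = 0.128, and 1.14 ± 0.30 for Slc4a1, edgeR adjusted p = 0.118). The test of a drug-dependent genotype effect did not call either gene (0.48 ± 0.23 for Atp6v1b1, edgeR adjusted p = 0.152, and 0.52 ± 0.43 for Slc4a1, edgeR adjusted p = 0.416). For Atp6v1b1 the call against vehicle-treated control was lost in 8 of the 13 alternatives, including those without any 1 of the 3 control libraries or without treated Tsc2 KO replicate 1 or 2, with adjusted p up to 0.17. Rhcg (chr7:79593363-79617657), an ammonia channel gene, was at 59.2, 54 and 71.6 FPKM in control and at 123, 100 and 116 FPKM in treated Tsc2 KO kidneys, a rise of 0.88 ± 0.17 (edgeR adjusted p = 0.0309) beside 0.83 ± 0.17 without the drug. This call was lost without control replicate 1 or 2 or treated Tsc2 KO replicate 1 or 3 (adjusted p up to 0.155 over the alternatives).

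A few intercalated cell genes outside the list were called too; they were picked out after the values were seen. Oxgr1 (chr14:120019585-120042435), the receptor for alpha-ketoglutarate, known from pendrin-positive cells, was at 14.6, 15.7 and 18.2 FPKM in control, 23.2, 21.6 and 17.6 in vehicle-treated Tsc2 KO and 35.3, 41.6 and 35.8 in treated Tsc2 KO kidneys, and it exceeded both control (1.22 ± 0.18, edgeR adjusted p = 0.00321) and vehicle-treated Tsc2 KO (0.86 ± 0.17, edgeR adjusted p = 0.00153). Its genotype effect was larger with the drug than without it by 0.96 ± 0.25 (edgeR adjusted p = 0.0119). Hepacam2, an adhesion molecule gene of intercalated cells, was 2.04-fold and Atp6v1c2, another pump subunit gene, 1.93-fold higher than control. Both calls were lost without control replicate 1 or 2 or treated Tsc2 KO replicate 1 or 3, and that of Atp6v1c2 also without control replicate 3 (adjusted p up to 0.116 and 0.148 over the alternatives). Atp6v1c2 overlaps Pdia6 on the other strand, which was at 40.2 FPKM on average in control and 39.3 FPKM in treated Tsc2 KO kidneys.

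For 4 list members the vehicle-treated Tsc2 KO kidneys were low and the drug raised the level. Slc26a4, the gene of pendrin, was at 33.1, 44.7 and 46.5 FPKM in control, 3.85, 6.86 and 9.15 in vehicle-treated Tsc2 KO and 53.1, 48 and 35.6 in treated Tsc2 KO kidneys. The vehicle-treated Tsc2 KO libraries stood far below all the others, and the treated libraries overlapped the control libraries. Against vehicle-treated Tsc2 KO the treated kidneys were higher by 2.79 ± 0.32 for Slc26a4, 3.23 ± 0.24 for Slc4a9 (a bicarbonate-transporter family member), 3.25 ± 0.32 for Insrr (an alkali-sensing receptor) and 3.05 ± 0.41 for Hmx2 (a homeobox factor), all called by edgeR with adjusted p from 1.9e-07 to 5.07e-05. Against vehicle-treated control none of these was called, and their 95% intervals were -0.49 to 0.77, 0.06 to 0.97, -0.5 to 0.7 and -0.55 to 1. Of the remaining list members, Atp6v1g3 (1.06 ± 0.31), Rhbg (0.93 ± 0.24), Atp6v0a4 (0.12 ± 0.17) and Car2 (0.03 ± 0.15) were not called.

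**Figure D2:**
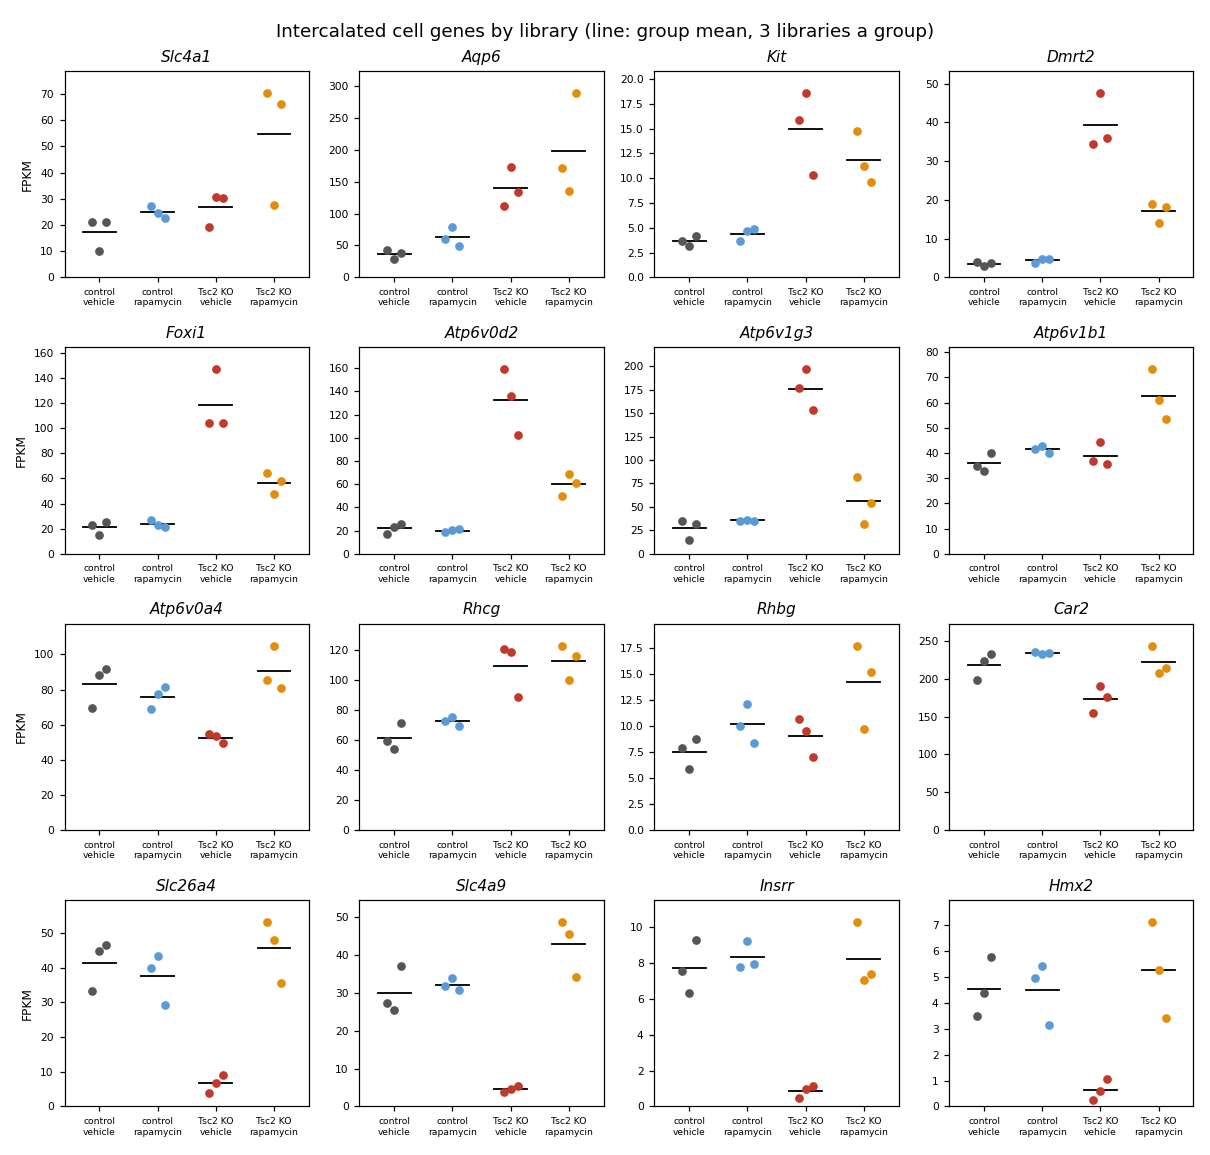
Levels (y axes, FPKM on a linear scale from 0) of the 16 intercalated cell genes in the 4 drug-cohort groups (x axes); points are libraries, 3 a group, and lines are group means. Slc4a1 and Atp6v1b1 are highest with deletion and drug together, Dmrt2, Foxi1 and Atp6v0d2 are intermediate, and Slc26a4, Slc4a9, Insrr and Hmx2 are low only in vehicle-treated Tsc2 KO kidneys.

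The promoters of 4 higher genes are shown because each holds a motif bound by factor families named above. They run from 250 bases before to 50 bases after the start site (RefSeq, GRCm38.p6), 5′ to 3′ on the gene's strand. Capitals mark CACGTG, the core E-box read by TFEB-type factors, in Aqp6 and Pigr (29 and 71 bases before the start) and TGTTTAC, a forkhead motif, in Atp6v1b1 and Guca2a (98 and 34 bases before the start). All 4 genes lie on the plus strand, and distances are from the RefSeq start, which for Aqp6, Atp6v1b1 and Guca2a differs from the gene start in the deposited tables.
Aqp6, chr15:99600950-99601249: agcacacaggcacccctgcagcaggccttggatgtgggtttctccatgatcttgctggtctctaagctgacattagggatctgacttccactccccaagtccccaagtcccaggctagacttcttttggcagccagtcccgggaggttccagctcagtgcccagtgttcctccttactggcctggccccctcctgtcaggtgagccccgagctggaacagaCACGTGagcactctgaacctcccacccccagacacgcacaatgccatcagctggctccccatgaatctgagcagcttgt
Pigr, chr1:130826434-130826733: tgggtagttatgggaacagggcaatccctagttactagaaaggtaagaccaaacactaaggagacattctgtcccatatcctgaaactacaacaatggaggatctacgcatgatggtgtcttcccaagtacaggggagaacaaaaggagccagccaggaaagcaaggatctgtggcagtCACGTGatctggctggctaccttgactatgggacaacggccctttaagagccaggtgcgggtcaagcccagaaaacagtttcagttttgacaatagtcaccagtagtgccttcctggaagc
Atp6v1b1, chr6:83742767-83743066: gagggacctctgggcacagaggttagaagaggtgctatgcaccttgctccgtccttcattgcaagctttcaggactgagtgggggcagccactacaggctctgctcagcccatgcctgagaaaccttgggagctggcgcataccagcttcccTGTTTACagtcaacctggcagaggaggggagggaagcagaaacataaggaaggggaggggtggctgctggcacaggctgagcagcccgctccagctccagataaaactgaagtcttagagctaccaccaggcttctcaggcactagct
Guca2a, chr4:119637482-119637781: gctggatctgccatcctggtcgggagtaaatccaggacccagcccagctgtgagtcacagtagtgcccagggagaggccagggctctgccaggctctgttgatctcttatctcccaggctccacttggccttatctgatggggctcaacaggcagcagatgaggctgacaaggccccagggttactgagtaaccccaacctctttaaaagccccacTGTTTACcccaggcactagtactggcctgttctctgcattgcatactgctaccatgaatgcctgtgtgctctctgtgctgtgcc
Both motifs were searched on both strands, and CACGTG reads the same on each. Promoters were found for 29 of the 34 higher and 16 of the 19 lower genes. CACGTG was in 5 of 39 promoters of higher genes (12.8%), 1 of 20 of lower genes (5%) and 7.15% of 32851 promoters of all genes, and TGTTTAC in 4 of 39 (10.3%), 1 of 20 (5%) and 3.65%. A match is a run of letters, not a bound site, and the motifs were chosen with the called genes known.

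Guca2a and Fetub had the largest differences among the protein-coding higher genes. Guca2a (chr4:119637704-119639471), which encodes the hormone guanylin, was at 6.27, 4.8 and 5.4 FPKM in control, 57.2, 94.7 and 73.2 in vehicle-treated Tsc2 KO and 28.8, 33.5 and 59.2 in treated Tsc2 KO kidneys. It remained 7.37-fold above control (2.88 ± 0.36, edgeR adjusted p = 0.000952) and 9.77-fold above Rapamycin-treated control. Fetub (chr16:22918334-22939778), a secreted protease inhibitor gene, was at 0.803, 1.54 and 1.79 FPKM in control and at 7.64, 9.81 and 11.4 in treated Tsc2 KO kidneys, 7.04-fold higher (edgeR adjusted p = 0.00223), after 27.2-fold without the drug.

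Lcn2 and Gdf15 are induced in injured or stressed tubules. Lcn2 (chr2:32384633-32388252; lipocalin, an iron-siderophore carrier) was at 1.06, 0.998 and 0.94 FPKM in control, 49.5, 37.6 and 18.7 in vehicle-treated Tsc2 KO and 7.21, 2.32 and 10.2 in treated Tsc2 KO kidneys. Gdf15 (chr8:70629393-70632456), a stress-induced cytokine gene, was at 2.47, 1.26 and 1.26 FPKM in control and at 10.9, 3.21 and 18.4 in treated Tsc2 KO kidneys. The treated libraries were spread widely, replicate 2 being lowest for both genes. The differences were 2.72 ± 0.46 for Lcn2 (edgeR adjusted p = 0.0119) and 2.70 ± 0.49 for Gdf15 (edgeR adjusted p = 0.0191), and neither was called against Rapamycin-treated control, where the levels were 1.83, 1.47 and 2.93 FPKM and 6.97, 2.87 and 4.61 FPKM. Each lost its call in 6 of the 13 alternatives: both without control replicates 2 and 3 or treated Tsc2 KO replicate 3, Lcn2 also without control replicate 1 and Gdf15 without treated Tsc2 KO replicate 1. Adjusted p then reached 0.123 for Lcn2 and 0.217 for Gdf15.

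Pigr (chr1:130826684-130852249), the epithelial receptor that carries IgA across the cell, was at 21.4, 32.4 and 27.1 FPKM in control, 380, 314 and 211 in vehicle-treated Tsc2 KO and 72.7, 123 and 79.1 in treated Tsc2 KO kidneys (1.77 ± 0.35 against control, edgeR adjusted p = 0.0355). That call was lost without any 1 of the 6 libraries, with adjusted p up to 0.186 over the alternatives. Dkk3, a secreted Wnt-pathway modulator gene, was at 5.25, 5.04 and 4.33 FPKM in control, 84.3, 122 and 115 in vehicle-treated Tsc2 KO and 8.39, 19.1 and 16.8 in treated Tsc2 KO kidneys. Its difference of 1.60 ± 0.28 (edgeR adjusted p = 0.0174) lost the call without any 1 of the control libraries or treated Tsc2 KO replicate 3 (adjusted p up to 0.121). Pros1, the gene of anticoagulant protein S, remained 1.77-fold higher, a call lost in 4 of the 13 alternatives (adjusted p up to 0.119).

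Serpinb9, which encodes an inhibitor of granzyme B, was at 9.97, 10.6 and 11.9 FPKM in control, 201, 139 and 93.1 in vehicle-treated Tsc2 KO and 31.7, 30.8 and 43.8 in treated Tsc2 KO kidneys, and stayed 3.29-fold above control (edgeR adjusted p = 0.00321). Its relative Serpinb6b stayed 2.30-fold higher, a call lost in 4 of the 13 alternatives (adjusted p up to 0.117). Rec8, a meiotic cohesin gene, was at 1.41, 1.21 and 3.23 FPKM in control and 8.88, 7.33 and 11.1 in treated Tsc2 KO kidneys, a difference of 2.23 ± 0.47 (edgeR adjusted p = 0.0435) close to the 2.42 ± 0.47 seen without the drug. Its call was lost in 7 of 13 alternatives, among them those without control replicates 1 and 2 or treated Tsc2 KO replicates 1 and 3 (adjusted p up to 0.21). Cpsf4l, related to an mRNA cleavage factor, was 3.41-fold higher and lost its call without treated Tsc2 KO replicate 3 and on the 6 libraries alone (adjusted p up to 0.0814). The rest of the protein-coding higher genes were Mlph (melanophilin, 2.6-fold), Blnk (a signalling adaptor, 1.97-fold), Cldn7 (a tight junction claudin, 1.97-fold), Rcan2 (a calcineurin regulator, 1.97-fold), Irf9 (an interferon signalling factor, 1.63-fold, overlapping Rnf31), Anxa4 (an annexin, 1.49-fold), Slc35g1 (1.69-fold), Slc44a3 (1.56-fold) and the lysosomal protease Ctsc (1.72-fold). Slc44a3, Anxa4, Blnk, Slc35g1 and Rcan2 lost their calls in 8, 7, 6, 5 and 2 of the 13 alternatives. Adjusted p then reached 0.281, 0.235, 0.116, 0.138 and 0.0814.

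The pseudogenes Gm8730 and Gm48120 were also higher, and reads of such copies may come from near-identical genes. Gm8730 (chr8:102864845-102865798) was at 4.51, 3.96 and 3.17 FPKM in control, 57.2, 39.5 and 50.3 in vehicle-treated Tsc2 KO and 57.5, 43.6 and 63.8 in treated Tsc2 KO kidneys, so that the drug left its 14.1-fold excess (edgeR adjusted p = 9.01e-09) in place (0.17 ± 0.16 against vehicle-treated Tsc2 KO). Gm48120 had 0 reads over the 3 control libraries and 193 over the treated Tsc2 KO libraries, at least 71.6-fold higher when the floor is set at 3 reads over the control group. Against Rapamycin-treated control, where replicate 3 was at 2.05 FPKM, it was not called (edgeR adjusted p = 0.194). Its call against vehicle-treated control was lost in 7 of the 13 alternatives (adjusted p up to 0.172).

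Most of the higher genes lay nearer to control with the drug than without it. Of the 34, 26 had a smaller difference from control than the vehicle-treated Tsc2 KO kidneys had, and 26 were called between treated and vehicle-treated Tsc2 KO, 23 of them toward control and 3 away from it (Slc4a1, Oxgr1 and Atp6v1b1). Over all genes, 1694 were higher (9.95%) and 1384 lower (8.13%) in that comparison, which shares the treated libraries with the main one; edgeR on the 6 Tsc2 KO libraries alone called 895 lower and the fit with the Xist covariate 873. Of the 34, 19 were also called against Rapamycin-treated control and none was called between Rapamycin-treated and vehicle-treated control. A missing call does not show the absence of a difference. Among the protein-coding genes of the 34, estimates for Rapamycin in controls ran from -0.41 ± 0.37 for Guca2a to 1.52 ± 0.48 for Gdf15.

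Akr1c14 (chr13:4049011-4090688), a hydroxysteroid dehydrogenase gene, had the largest difference among the 19 lower genes. It was at 37.6, 36.8 and 24.4 FPKM in control, 0.0937, 0.136 and 0.251 in vehicle-treated Tsc2 KO and 5.55, 7.96 and 6.91 in treated Tsc2 KO kidneys. Rapamycin raised it 42.3-fold from the vehicle-treated Tsc2 KO level, and it remained below vehicle-treated control by 2.27 ± 0.21 on the log2 scale (edgeR adjusted p = 4.06e-05) and below Rapamycin-treated control by 1.55 ± 0.20 (edgeR adjusted p = 0.00186). Ace (chr11:105967945-105989964), the angiotensin-converting enzyme gene, was at 47.5, 30.6 and 41.9 FPKM in control and at 16.1, 18.9 and 23.1 in treated Tsc2 KO kidneys, a difference of -1.04 ± 0.19 (edgeR adjusted p = 0.0221) after -2.56 ± 0.20 without the drug. The call on Ace was lost without control replicate 1 or 3 or treated Tsc2 KO replicate 1 or 2 (adjusted p up to 0.138 over the alternatives).

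Acadm and Echs1, which encode enzymes of mitochondrial beta-oxidation, fell by 0.80 ± 0.16 and 0.49 ± 0.10 on the log2 scale (edgeR adjusted p = 0.036 and 0.0437). Acadm was at 337, 251 and 236 FPKM in control and at 152, 156 and 164 in treated Tsc2 KO kidneys. The call on Echs1 was lost without any 1 of the 6 libraries and that on Acadm without any but control replicate 3 (adjusted p up to 0.326 and 0.186). Kyat3, a kynurenine aminotransferase gene, and Cisd3, which encodes a mitochondrial iron-sulfur protein, fell by 0.92 ± 0.16 and 0.51 ± 0.10. These 2 calls were lost in 3 and 8 of the 13 alternatives (adjusted p up to 0.138 and 0.335). Abcc3, an organic anion efflux pump gene, was at 32, 15.9 and 18.2 FPKM in control and 6.96, 4.21 and 11.3 in treated Tsc2 KO kidneys (-1.56 ± 0.33, edgeR adjusted p = 0.0437). That call was lost in 7 of the 13 alternatives, with adjusted p up to 0.281, and held among the left-out libraries only without treated Tsc2 KO replicate 3. Cwh43 (a membrane-anchor remodelling gene), Nxpe3 and Hmgn5 (a nucleosome-binding protein gene) fell by 0.97 ± 0.20, 0.97 ± 0.18 and 0.52 ± 0.10. Their calls were lost in 7, 5 and 8 of the 13 alternatives (adjusted p up to 0.269, 0.125 and 0.268).

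Levels of several lower genes overlapped between treated Tsc2 KO and Rapamycin-treated control kidneys. Slc25a25, a mitochondrial ATP-Mg and phosphate carrier gene, was at 33.5, 26.5 and 21.5 FPKM in vehicle-treated control, 7.46, 6.07 and 8.31 in Rapamycin-treated control and 10.8, 10.4 and 7.02 in treated Tsc2 KO kidneys, and the last 2 groups differed by 0.37 (95% interval -0.24 to 0.98). Tob2, an antiproliferative gene, stood at 25.7, 27.1 and 21.3 FPKM, then 8.2, 12.3 and 10.3, then 10.9, 14 and 12.7 in the same order, and those treated groups differed by 0.29 (95% interval -0.12 to 0.7). Kcnk5, a potassium channel gene, stood at 53.4, 54.6 and 45.3, then 17.5, 27.8 and 28.1, then 21.9, 25.4 and 22.3 FPKM. Between vehicle-treated control and treated Tsc2 KO the differences were -1.53 ± 0.29 for Slc25a25 (edgeR adjusted p = 0.025), -0.98 ± 0.19 for Tob2 (0.0328) and -1.14 ± 0.23 for Kcnk5 (0.0406). Slc25a25 lost its call without control replicate 1 or 2 or treated Tsc2 KO replicate 1 or 3, as did Tob2, and Kcnk5 without any 1 of the 6 libraries, with adjusted p up to 0.148, 0.157 and 0.178 over the alternatives.

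Slco1a6 (chr6:142085761-142208521), an organic anion transporter gene, was at 90.3, 78.2 and 77.4 FPKM in control, 36.1, 48.9 and 35.5 in Rapamycin-treated control, 5.71, 5.08 and 6.83 in vehicle-treated Tsc2 KO and 26.3, 29.9 and 44.4 in treated Tsc2 KO kidneys. The treated libraries of both genotypes overlapped and lay below every vehicle-treated control. The gene fell by 1.29 ± 0.18 against vehicle-treated control (edgeR adjusted p = 0.00321), and the 2 Rapamycin-treated groups differed by -0.26 (95% interval -0.64 to 0.13). Gm10639, a predicted gene whose reads may be shared with near-identical copies, fell by 1.28 ± 0.24 and was 0.54 ± 0.23 below Rapamycin-treated control, a difference that was not called.

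For 3 lower genes, listed markers of other cell types mostly had estimates below 0 as well, although edgeR called none of those markers. Lpl, the lipoprotein lipase gene, was at 80.1, 94.4 and 37 FPKM in control and 17.3, 23.8 and 22.3 in treated Tsc2 KO kidneys (-1.73 ± 0.31, edgeR adjusted p = 0.0191), a call lost without control replicate 1 or 2 or treated Tsc2 KO replicate 1 or 3 (adjusted p up to 0.126 over the alternatives). The adipocyte gene Cfd was at 517, 391 and 0 FPKM in the same control libraries and at 5.24, 6.38 and 39.2 in the treated Tsc2 KO libraries, and the summed level of the adrenal and adipose list was 1.3 to 677 FPKM in control and 8.77 to 53.7 in treated Tsc2 KO kidneys, with 9 of its 10 tested genes at estimates below 0 and none called. Klf2, a flow-responsive transcription factor gene of endothelium, was at 22, 18.5 and 20.2 FPKM in control, 10.9, 12.2 and 13.8 in Rapamycin-treated control and 10.8, 8.36 and 9.7 in treated Tsc2 KO kidneys (-1.07 ± 0.17, edgeR adjusted p = 0.00856), and Cd300lg, another endothelial gene, fell by 0.97 ± 0.20, a call lost without any library but treated Tsc2 KO replicate 2 (adjusted p up to 0.208). Endothelial genes summed to 187 to 229 FPKM in control and 116 to 141 in treated Tsc2 KO kidneys. None of 14 was called by edgeR (10 lower at an unadjusted p under 0.05, 1 by DESeq2), all 14 estimates were below 0, and their part in these results was not tested.

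Against Rapamycin-treated control, the comparison that holds the drug constant, 52 genes were higher (0.305%) and 10 lower (0.0587%) in treated Tsc2 KO kidneys, 0.364% in all, with 2189 genes at an unadjusted p under 0.05. These numbers also hung on single libraries: without Rapamycin-treated control replicates 1, 2 and 3 they were 16, 11 and 30 higher and 5, 1 and 3 lower, and without treated Tsc2 KO replicates 1, 2 and 3 they were 63, 44 and 28 higher and 20, 4 and 10 lower. DESeq2 gave 130 and 62, edgeR on the 6 libraries of this comparison alone 20 and 6, and edgeR with the Xist covariate 107 and 45. Of the 19 genes lower than in vehicle-treated control, 3 (Tsc2, Akr1c14 and Cisd3) were also called here. Called here and not against vehicle-treated control were 33 higher and 7 lower genes. Picked from these after the values were seen were the lysosomal enzyme genes Hexa (1.30 ± 0.23, edgeR adjusted p = 0.0131) and Gusb (0.62 ± 0.11, edgeR adjusted p = 0.0147), the V-ATPase accessory gene Atp6ap1 (0.49 ± 0.11, edgeR adjusted p = 0.0482), the Rag GTPase gene Rragd (1.14 ± 0.20, edgeR adjusted p = 0.0119) and, among lower genes, the collecting duct water channel gene Aqp3 (-0.90 ± 0.18, edgeR adjusted p = 0.0369). Against vehicle-treated control the estimates were 0.73 for Hexa, 0.14 for Gusb, 0.27 for Atp6ap1 and -0.32 for Aqp3. None of these was called there (edgeR adjusted p = 0.215, 0.755, 0.378 and 0.626). The 33 also held Gadd45g (1.19 ± 0.25) and Dusp6 (0.67 ± 0.15), which were called lower with Rapamycin in control kidneys. Rragd was at 13.3, 12.8 and 12.7 FPKM in Rapamycin-treated control, 15.3, 16.9 and 23.3 in vehicle-treated control and 23.7, 34.6 and 27.1 in treated Tsc2 KO kidneys. The same gene was above vehicle-treated control by 0.63 ± 0.19, which was not called (edgeR adjusted p = 0.222).

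Few genes were called for the effect of Rapamycin in control kidneys. None was called higher (0%) and 5 were lower (0.0294%), namely Gadd45g, Slc25a25, Tob2, Dusp6 and Nfkbia, with 1926 genes at an unadjusted p under 0.05 and 13 higher and 27 lower by DESeq2. Gadd45g (-2.21 ± 0.25) and Dusp6 (-1.23 ± 0.15) had the lowest adjusted p (0.00252 for each in edgeR). The test of whether the genotype effect differed with the drug called 1421 genes upward (8.35%) and 1035 downward (6.08%). The labels do not give the sex of the mice, and with the level of Xist as a covariate this test called 761 and 403. Xist itself was lower in vehicle-treated Tsc2 KO than in vehicle-treated control kidneys, so the covariate can also take up genotype differences. Whether the groups differed in sex was not tested. In that fit vehicle-treated Tsc2 KO kidneys held 904 higher and 1259 lower genes against vehicle-treated control, and treated Tsc2 KO kidneys 28 and 14. The lowest p of that test went to the following genes: Slc13a3, Klk1, Cyp2d12, Lgals3 and Akr1c14. For Slc13a3, a dicarboxylate transporter gene, levels were 205, 191 and 202 FPKM in control, 10.8, 13.3 and 14.5 in vehicle-treated Tsc2 KO and 171, 199 and 146 in treated Tsc2 KO kidneys. Lgals3, the galectin gene raised in injured tubules, was at 18.2, 14.5 and 17.8, then 147, 134 and 138, then 21.7, 12.8 and 18.8 FPKM in the same order. Cyp2d12, a cytochrome gene, was at 11.2, 16.6 and 20.0 FPKM in control, 0.182, 0.318 and 0.393 in vehicle-treated Tsc2 KO and at 19.6, 35.8 and 30.6 in treated Tsc2 KO kidneys.

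Few lysosomal genes were called in treated Tsc2 KO kidneys, and of 16 mTORC1 and TSC genes none was higher and 1, the deleted gene Tsc2, was lower. Of 43 lysosomal hydrolase and cofactor genes, 1 (Ctsc) was called higher in treated Tsc2 KO kidneys, beside 0.2% of all genes, and 20 in vehicle-treated ones, beside 11.3%. With the drug 30 of the 43 estimates were above 0, with 5 higher and 0 lower at an unadjusted p under 0.05. Ctsc was at 5.77, 3.94 and 4.68 FPKM in control, 21.3, 22.4 and 17.2 in vehicle-treated Tsc2 KO and 7.77, 8.45 and 8.57 in treated Tsc2 KO kidneys, a call lost without any 1 of the libraries but control replicate 1 (adjusted p up to 0.18). Medians of the hydrolases were 0.10 with the drug and 0.47 without it. Summed, they stood at 2350 to 2730 FPKM in control and 2550 to 3510 in treated Tsc2 KO kidneys, which overlapped, and at 2190 to 2230 in Rapamycin-treated control, below every treated Tsc2 KO library (median difference 0.26). None of 23 lysosomal membrane protein genes was called by edgeR (3 higher at an unadjusted p under 0.05, 0 by DESeq2), against 10 without the drug. Lamp1 was at 524, 536 and 551 FPKM in control and 525, 560 and 643 FPKM in treated Tsc2 KO kidneys. Of 14 markers induced by TFEB and its relatives 1, Atp6v0d2, was called (median 0.14; 5 higher and 0 lower at an unadjusted p under 0.05). These markers summed to 274 to 313 FPKM in control, 645 to 654 in vehicle-treated Tsc2 KO and 358 to 408 in treated Tsc2 KO kidneys, without overlap. Of 22 V-ATPase genes 3 were called higher (Atp6v0d2, Atp6v1b1 and Atp6v1c2, all intercalated cell subunits; median 0.25), and without the drug 15 were higher, Atp6v1b1 not among them, and 1 lower. With the drug 21 of the 22 estimates were above 0 and 9 genes were higher at an unadjusted p under 0.05. V-ATPase genes summed to 1020 to 1150 FPKM in control, 1660 to 1780 in vehicle-treated Tsc2 KO and 1320 to 1370 in treated Tsc2 KO kidneys, again without overlap.

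Rragc, Flcn, Lamtor1 and Mthfd2 were each above control in vehicle-treated Tsc2 KO kidneys and within the following 95% intervals of control in treated ones: -0.18 to 0.41, -0.33 to 0.2, -0.28 to 0.4 and -0.26 to 0.55. Mthfd2, the mitochondrial one-carbon enzyme gene, was at 1.26, 1.2 and 1.36 FPKM in control, 8.18, 7.3 and 6.86 in vehicle-treated Tsc2 KO and 1.58, 0.977 and 1.65 in treated Tsc2 KO kidneys. Tfeb itself was not called in either Tsc2 KO group (0.37 ± 0.18 with the drug, edgeR adjusted p = 0.533). Of 20 genes of the ATF4 and one-carbon list 9 reached 5 FPKM in treated Tsc2 KO or control kidneys, and none of these was called (over all 20, 2 higher and 1 lower at an unadjusted p under 0.05, 0 by DESeq2). Mthfd2 reached that level in vehicle-treated Tsc2 KO kidneys and not in the groups compared.

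No gene was called in the lists of other tubule segments, although summed levels of some lists did not overlap control. Of 30 proximal tubule genes 26 were lower in vehicle-treated Tsc2 KO kidneys (median -2.45), beside 11.7% of all genes tested. In treated ones none was called, where 0.112% of all genes were lower (median -0.23, with 3 lower at an unadjusted p under 0.05 and 2 lower by DESeq2). Summed, these genes stood at 14500 to 19100 FPKM in control, 11500 to 15100 in Rapamycin-treated control, 1670 to 2800 in vehicle-treated Tsc2 KO and 12300 to 13800 in treated Tsc2 KO kidneys, so that the treated Tsc2 KO libraries lay below every vehicle-treated control. Kap, an abundant androgen-responsive gene of the proximal tubule, was at 10200, 5530 and 7810 FPKM in control, 12, 80.1 and 197 in vehicle-treated Tsc2 KO and 4240, 4720 and 6430 in treated Tsc2 KO kidneys. This 1 gene thus made up a large part of the summed level in control and in treated Tsc2 KO kidneys. Slc34a1, the sodium-phosphate cotransporter gene, was at 249, 233 and 394 FPKM in vehicle-treated Tsc2 KO, and its 833 to 1090 FPKM in control and 779 to 1130 FPKM in treated Tsc2 KO kidneys overlapped. None of 21 thick limb and distal tubule genes and none of 13 principal cell genes was called (each had 4 higher at an unadjusted p under 0.05, and DESeq2 called 2 higher in each, with 1 lower thick limb and distal tubule gene); medians were 0.04 and 0.25. Thick limb and distal tubule genes summed to 2340 to 2890 FPKM in control, 2460 to 3020 in Rapamycin-treated control and 3240 to 3720 in treated Tsc2 KO kidneys, above every control. Umod, an uncalled gene whose levels are given below, made up a large part of these sums. Its treated Tsc2 KO libraries also lay above every vehicle-treated control, so the gap in the sums does not speak for the list as a whole. For principal cells the treated Tsc2 KO sums (539 to 848 FPKM) overlapped those of vehicle-treated control (558 to 622) and lay below every Rapamycin-treated control (942 to 1170), against which the median was -0.5 and 1 gene was called lower. In the fatty acid oxidation list 1 of 28, Acadm, was lower (0.112% of all genes), against 22 without the drug (11.7% of all genes).

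Lists of injury, immune and glomerular genes held few calls but did not all centre on 0. Of 28 tubular injury genes, only Lcn2 was called higher, beside 0.2% of all genes (median 0.45, with 11 higher and 1 lower at an unadjusted p under 0.05). Of 25 macrophage genes, 11 of which reached 5 FPKM, none was called, although 23 estimates were above 0 (median 0.70, with 9 higher and 1 lower at an unadjusted p under 0.05, 3 higher by DESeq2). Summed macrophage genes stood at 271 to 286 FPKM in control, 653 to 1290 in vehicle-treated Tsc2 KO and 496 to 738 in treated Tsc2 KO kidneys, so that the treated libraries did not overlap the controls. Cd74, an antigen-presentation gene, was at 92.9, 97 and 93.4 FPKM in control and 307, 195 and 292 FPKM in treated Tsc2 KO kidneys, a difference of 1.49 ± 0.37 that was not called (edgeR adjusted p = 0.0897). Podocyte genes had a median of -0.53 with all 10 estimates below 0 and none called (5 lower at an unadjusted p under 0.05, 0 by DESeq2). Only 2 of 27 cell cycle genes reached 5 FPKM in either group and could be called, and neither was (over all 27, 1 higher at an unadjusted p under 0.05, 0 by DESeq2). Of 26 sterol and fatty acid synthesis genes none was called (median -0.16; 4 lower at an unadjusted p under 0.05, 1 by DESeq2). In all, 11 of the 38 lists held a called gene in treated Tsc2 KO kidneys.

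List members of high level that were not called against vehicle-treated control included Umod, Scd1 and H2-Ab1. Umod, the uromodulin gene of the thick limb, was at 1240, 791 and 1070 FPKM in control and 1630, 1660 and 2020 in treated Tsc2 KO kidneys (0.78 ± 0.23, edgeR adjusted p = 0.192). Scd1, the stearoyl-CoA desaturase gene, was at 748, 580 and 237 FPKM in control, 10.7, 41.5 and 134 in vehicle-treated Tsc2 KO and 69.6, 124 and 127 in treated Tsc2 KO kidneys (-2.29 ± 0.64, edgeR adjusted p = 0.158). H2-Ab1, a class II antigen-presentation gene, was at 33.6, 38 and 33.7 FPKM in control and 116, 77.7 and 93.4 in treated Tsc2 KO kidneys (1.45 ± 0.35, edgeR adjusted p = 0.0875). For these 3 genes no treated Tsc2 KO library overlapped control. Over the 13 alternatives adjusted p ran from 0.04 to 0.498 for Umod, 0.0188 to 0.407 for Scd1 and 0.00314 to 0.276 for H2-Ab1. They were called in 1, 2 and 3 of these alternatives.

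Neither Aqp2 nor Hsd11b2, both of principal cells, was called. The vasopressin-regulated water channel gene Aqp2 was at 196, 165 and 149 FPKM in control and 172, 92.9 and 341 in treated Tsc2 KO kidneys (0.25 ± 0.41). Hsd11b2, which encodes the enzyme that inactivates glucocorticoids in these cells, was at 119, 110 and 148 FPKM in control and 231, 146 and 164 in treated Tsc2 KO kidneys (0.53 ± 0.20, edgeR adjusted p = 0.35). In both cases the treated libraries overlapped the controls. Among the other lists, the differences were 0.05 ± 0.30 for Miox (inositol oxygenase, proximal tubule), 0.12 ± 0.16 for Cd63 (a lysosomal membrane tetraspanin), 0.29 ± 0.12 for Sqstm1 (the p62 autophagy receptor), -0.62 ± 0.23 for Podxl (podocalyxin), -0.68 ± 0.29 for Plvap (a diaphragm protein of fenestrated endothelium) and -0.48 ± 0.23 for Eng (endoglin, an endothelial receptor).

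**Figure D3:**
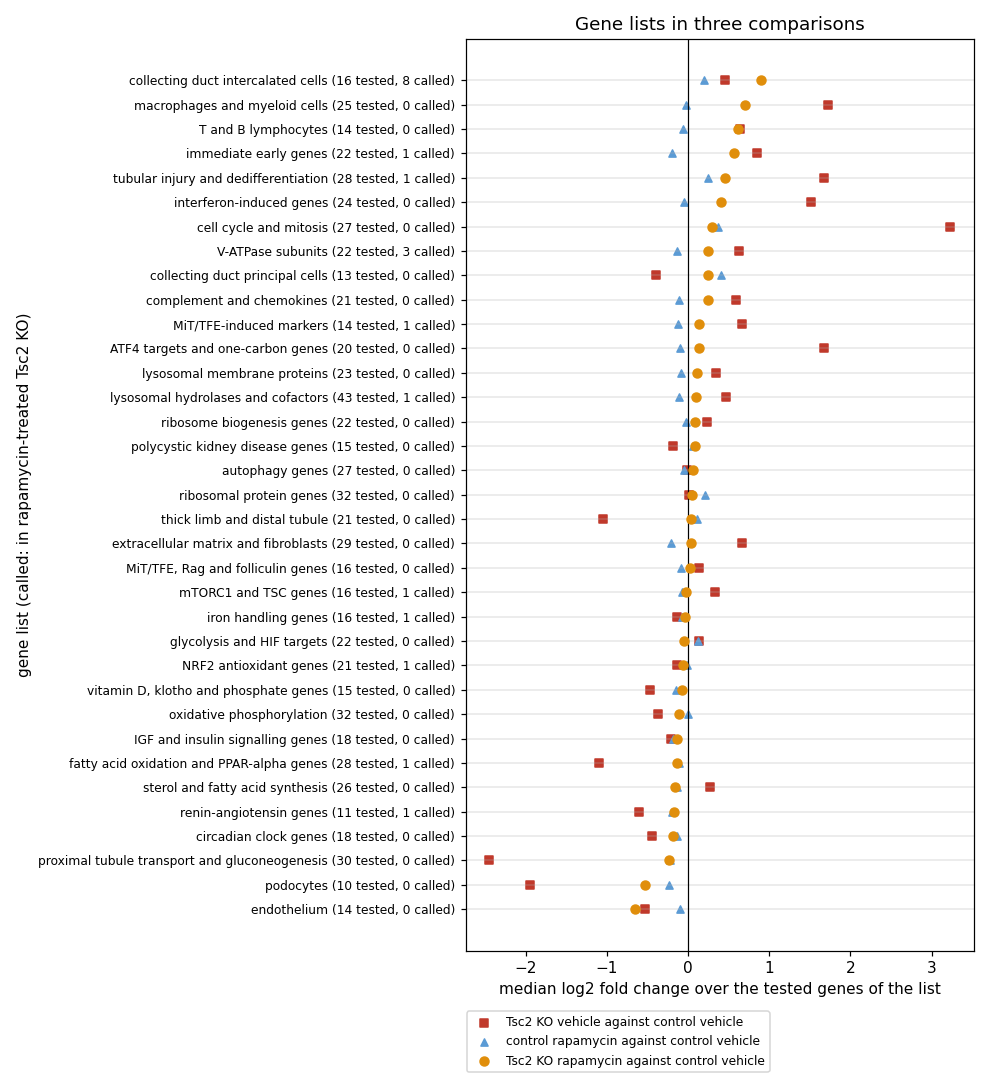
Median log2 fold change against vehicle-treated control (x axis) over the tested genes of 35 gene lists (y axis, with the number tested and the number called in treated Tsc2 KO kidneys), for Rapamycin-treated Tsc2 KO (circles), vehicle-treated Tsc2 KO (squares) and Rapamycin-treated control (triangles), which share the control libraries. Intercalated cells have the highest circle (0.90) and lie right of their square, while proximal tubule genes move from -2.45 without the drug to -0.23 with it.

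The untreated cohort, whose libraries are independent of the drug-treated mice, gave the genes of Tsc2 loss against which the residue was read. There, 729 of 16631 genes were higher in Tsc2 KO (4.38%) and 676 lower (4.06%), or 9.42% and 8.74% of those reaching 5 FPKM. Of the 34 genes higher in treated Tsc2 KO kidneys, 33 had the same direction in the untreated cohort and 27 were called there (median 1.43, against -0.01 over all genes tested). Of the 19 lower genes, 19 had the same direction and 12 were called (median -1.35). Aqp6, Slc4a1, Atp6v1b1 and Rhcg were not called in the untreated cohort, with estimates of 0.78, 0.56, 0 and 0.45.

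Read the other way, the untreated-cohort genes lay close to control in the treated kidneys with a small remainder in the original direction. The 729 higher genes had a median of 1.06 in vehicle-treated Tsc2 KO kidneys, 0.24 in treated Tsc2 KO kidneys and -0.01 in Rapamycin-treated controls. By library, the medians were 0.26, 0.15 and 0.37 in treated Tsc2 KO, 1.04, 1.08 and 1.07 in vehicle-treated Tsc2 KO, and -0.05 to 0.04 in Rapamycin-treated controls. Of these genes 87.4% were above control in treated Tsc2 KO kidneys, beside 51.3% of all genes tested. Called higher there were 27 (3.7%), beside 0.2% of all genes tested. The 676 lower genes had medians of -1.43, -0.20 and 0.02 in the same 3 comparisons, and by library -0.20, -0.17 and -0.26 in treated Tsc2 KO kidneys. Of them 82.8% lay below control, beside 48.6% of all genes, and 12 were called lower (1.78%), beside 0.112% of all genes. Treated Tsc2 KO and Rapamycin-treated control libraries did not overlap for either set, and against Rapamycin-treated control the medians were 0.25 and -0.22.

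**Figure D4:**
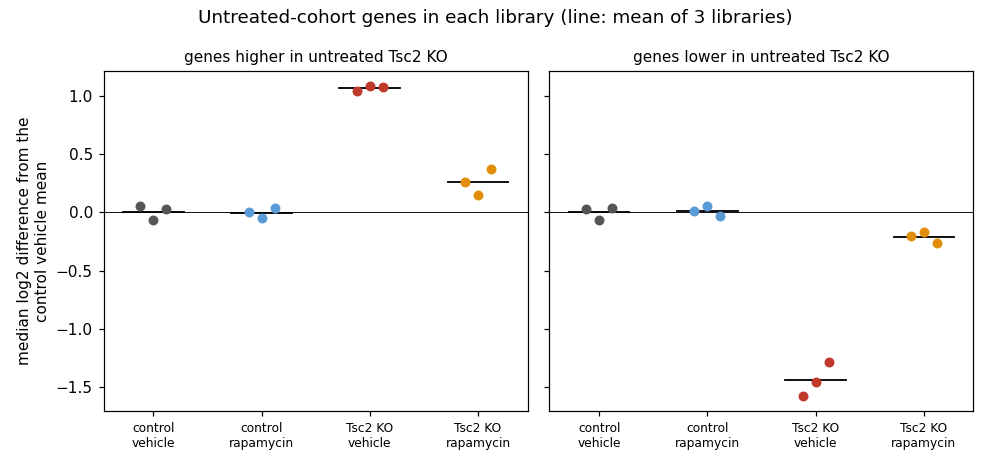
Median log2 difference from the vehicle-treated control mean (y axis) over the 729 genes higher (left) and the 676 genes lower (right) in the untreated Tsc2 KO cohort, for each drug-cohort library (points; lines are means of 3 libraries). Treated Tsc2 KO libraries lie at 0.15 to 0.37 and -0.26 to -0.17, between the controls near 0 and the vehicle-treated Tsc2 KO libraries at 1.04 to 1.08 and -1.57 to -1.28.

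Matn1, Gm48120, Gm14506, Gpnmb and Nyx had the largest differences in the untreated cohort, and of these only Gm48120 was called in treated Tsc2 KO kidneys, although all 5 had estimates above 0 there. Nyx, a small leucine-rich proteoglycan gene, was at 13.4, 8.07 and 12 FPKM in vehicle-treated Tsc2 KO and at 0.0963, 0.232 and 0.351 FPKM in treated Tsc2 KO kidneys, with 0.0101, 0.0337 and 0 FPKM in control. Matn1 (matrilin) had 0 reads in control, 741 in vehicle-treated and 60 in treated Tsc2 KO kidneys, at least 22.3-fold above the floor of 3 reads over the control group in the last. The corresponding bound was 4.45-fold for Gm14506, with 12 reads in treated Tsc2 KO kidneys. Gpnmb had an estimate of 0.84 ± 1.04 against control, and each treated Tsc2 KO library held more Nyx than any vehicle-treated control library. Guca2a, Gdf15, Fetub and the pseudogenes Gm8730 and Gm48120 were the higher genes with the largest differences among those called in both cohorts, and Akr1c14, Abcc3, Slco1a6, Klf2 and Ace the lower ones. For Gm8730 the untreated cohort was divided: its Tsc2 KO libraries held 35.3, 30.3 and 3.39 FPKM and its controls 4.09, 3.38 and 1.69, so that replicate 3 of the Tsc2 KO group lay within the control range.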

How the data were processed

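Total RNA from whole kidney was sequenced as poly-A libraries. Per the labels, the authors processed the reads against mm10 with tools that include STAR 2.6.1d, HISAT2 2.0.5, featureCounts 1.5.0-p3 and DESeq2 1.20.0. They deposited raw read counts per gene, used here for all tests, and FPKM per gene, a length- and depth-normalized value used here for levels and for the minimum of 5 in a call. The tables listed 54532 genes and every value column matched 1 sample. Counts without strand cannot separate overlapping genes.

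The 18 libraries of the KspCre drug cohort (6 groups of 3, Tsc2/Tfeb double knockouts included) were fitted together with edgeR 4.0.16 (quasi-likelihood test, TMM, filterByExpr by group, Benjamini-Hochberg adjustment; R 4.3.3), so that all groups share 1 estimate of the spread, and the 12 untreated KspCre libraries likewise. SE is the estimate divided by the root of F. The test was checked on simulated data. Within the control and Tsc2 KO groups of the drug cohort, no 2 replicates agreed within sampling noise (chi-square per gene 20.6 to 55.7). Replicates of the double knockouts and of the untreated cohort were not compared in this way. Alternatives were DESeq2 1.42.0, edgeR on the groups compared, RLE size factors, no count filter, no FPKM minimum, a replicate block, a covariate for the level of Xist, and leaving out single libraries; the left-out libraries and the unfiltered fit of the untreated cohort were added after the data were seen.

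The comparison, its gene lists and tests were chosen with earlier results of these data known. Genes were named by rule: Tsc2, Tfeb and genes the study names; the 8 protein-coding higher and 8 lower genes with the largest changes; up to 3 called members per list, or 2 of highest FPKM where none was called; 5 higher and 5 lower genes called in both cohorts, with the 5 largest of the untreated cohort; and 5 genes of lowest p in the test of a drug-dependent genotype effect. Called genes outside this rule, uncalled intercalated cell genes, Adgrf5, Ttr, Efhd1, Gadd45g, Dusp6, Nfkbia, Hexa, Gusb, Atp6ap1 and Aqp3 were named after their values were seen. Uncalled list members picked by FPKM alone were named only in part, for length, and 1 such gene is not reported here. Promoters came from RefSeq (GRCm38.p6).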

Additional observations from a re-analysis of the deposited data

Results flagged for a closer look

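Genes named above were singled out where the genotype effect with Rapamycin differed from that with vehicle, by the edgeR test of that difference over all 17027 genes; values are log2 differences between the effects (with the drug minus without it), and all were called. Negative values for genes raised by Tsc2 loss and positive values for genes lowered by it mean a smaller genotype effect under the drug.

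Among intercalated cell and pump genes the values were -1.56 for Dmrt2, -1.24 for Foxi1, -0.99 for Atp6v0d2, -2.05 for Atp6v1g3, -1.08 for Hepacam2, 0.92 for Atp6v0a4, 0.96 for Oxgr1, 2.93 for Slc26a4, 3.12 for Slc4a9, 3.14 for Insrr and 3.05 for Hmx2. The other genes higher in treated Tsc2 KO kidneys had -2.49 (Fetub), -3.47 (Lcn2), -3.24 (Gdf15), -2.21 (Pigr), -3.1 (Dkk3), -1.27 (Pros1), -2.4 (Serpinb9), -1.9 (Serpinb6b), -1.55 (Mlph), -1.14 (Blnk), -1.45 (Cldn7), -0.78 (Rcan2), -0.75 (Irf9), -0.65 (Anxa4), -0.91 (Slc35g1), -1.44 (Ctsc) and -8.43 (Gm48120, at 0 in control, so that this fitted value depends on the prior count).

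The lower genes had 6.12 (Akr1c14), 3.54 (Slco1a6), 3.46 (Slc25a25), 2 (Kyat3), 1.83 (Ace), 1.77 (Cwh43), 1.73 (Acadm), 1.72 (Nxpe3), 1.5 (Lpl), 1.24 (Tob2), 1.03 (Kcnk5), 0.99 (Cisd3), 0.62 (Tsc2) and 0.49 (Echs1). Rapamycin also lowered Slc25a25 and Tob2 in control kidneys, so part of their value comes from that side of the difference. For Kcnk5 the estimate on that side was -1.06 ± 0.23 and was not called (edgeR adjusted p = 0.288).

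Genes not called in treated Tsc2 KO kidneys had -7.5 (Gpnmb), -9.3 (Nyx), -2.75 (Mthfd2), -3.71 (Lgals3), -0.59 (Flcn), -0.82 (Lamtor1), -0.62 (Gusb), -1.04 (Hexa), -0.85 (Sqstm1), 6.39 (Cyp2d12), 6.3 (Kap), 3.81 (Slc13a3), 3.69 (Klk1), 2.72 (Miox), 1.59 (Slc34a1) and 1.57 (Podxl). Gpnmb and Nyx were barely detected in vehicle-treated control, so the size of their values is imprecise. No sample was singled out, since groups of 3 are too small for that check.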

How the results depend on the processing

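RLE size factors moved none of the counts of called genes by over 1.5 times. DESeq2 gave 101 higher and 62 lower genes in treated Tsc2 KO against vehicle-treated control, 130 and 62 against Rapamycin-treated control, 13 and 27 for Rapamycin in controls, and medians of the untreated-cohort genes of 0.91 and -1.2 in vehicle-treated Tsc2 KO. Fitting only the groups compared gave 11 and 2, 20 and 6, and 1 and 3 for the first 3 comparisons, 895 lower for treated against vehicle-treated Tsc2 KO, and 3 intercalated cell genes. Without a count filter there were 67 and 32 calls, 33 lower against Rapamycin-treated control, and 2 and 12 for the drug in controls. Without the FPKM minimum there were 62 higher, then 86 and 22 against Rapamycin-treated control, 2622 and 2378 against vehicle-treated Tsc2 KO, 3295 and 3226 for vehicle-treated Tsc2 KO, 1597 lower in the test of a drug-dependent genotype effect, and 1270 and 1033 in the untreated cohort, with medians of 1.36 (higher set, vehicle-treated Tsc2 KO) and -0.25 (lower set, treated Tsc2 KO).

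Xist, entered as a covariate, differed from vehicle-treated control by -1.14 in vehicle-treated Tsc2 KO (edgeR adjusted p = 0.00104) and by -0.32 in treated Tsc2 KO (0.723). The covariate therefore shares variation with the genotype, and the fit cannot fully separate them. This fit gave 107 and 45 calls against Rapamycin-treated control, 873 lower against vehicle-treated Tsc2 KO, 904 and 1259 for vehicle-treated Tsc2 KO, 2 lower for the drug in controls, 761 and 403 in the test of a drug-dependent genotype effect and 5 intercalated cell genes, and it turned the sign of uncalled Aqp2 (-0.322), Klk1 (0.00123), Lamtor1 (-0.173), Lgals3 (-0.0722) and Miox (-0.0417). Same-numbered samples did not deviate together (correlations 0.17, 0.144 and -0.2), so numbers were not taken as pairs; a replicate block gave 31 higher and 12 lower genes, 2 lower for the drug in controls and 7 intercalated cell genes.

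Leaving out 1 library gave 16 to 64 higher and 5 to 27 lower genes, 5 to 9 intercalated cell genes, 11 to 63 and 1 to 20 against Rapamycin-treated control, 0 and 2 to 5 for the drug in controls, and 469 to 571 and 355 to 536 in the untreated cohort. Medians of the higher set ranged from 0.19 to 0.3 in treated Tsc2 KO, 1 to 1.08 in vehicle-treated Tsc2 KO and -0.03 to 0.02 in Rapamycin-treated control, and of the lower set from -0.24 to -0.17, -1.46 to -1.37 and -0.02 to 0.04. Uncalled genes near 0 changed sign without single libraries: Car2 (-0.0446 to 0.0707), Miox (-0.133 to 0.145), Slc26a4 (-0.0028 to 0.29), Slc34a1 (-0.126 to 0.131), Insrr (-0.0874 to 0.248), Lamtor1 (-0.078 to 0.244), Lgals3 (-0.0838 to 0.27), Klk1 (-0.283 to 0.0465), Hmx2 (-0.0578 to 0.452), Rragc (-0.000978 to 0.269) and Aqp2 (-0.36 to 0.595). Except where stated, the cause of these shifts was not tested. With 3 libraries a group, differences smaller than the intervals given were not detectable.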
